A study of Mus musculus with 9 samples.

Results

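The cytosolic ribosomal protein genes, which encode the proteins of the large and the small subunit of the ribosome, were followed through eosinophil development in mouse bone marrow. They were taken by a pattern of Rpl, Rps and Rplp gene symbols of the cytosolic ribosome, which does not catch Rpsa and Rpl36al. No measured value entered the choice. The rule found 83 of 23471 genes in the RNA tables, 51 of the large and 32 of the small subunit, spread over 19 chromosomes. Of the 83, 78 passed the filter on low counts and were tested. Rpl10l, Rpl26, Rpl29, Rpl39l and Rps4y2 did not, with 3, 1, 5, 3 and 45 counts over the 6 RNA libraries.

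Bone marrow pooled over Balb/c mice that had received no treatment was the source of 3 sorted kinds of cell. These were granulocyte-macrophage progenitors (GMP, Lin- CD34+ c-kithi CD16/32+), eosinophil progenitors (EoP, Lin- CD34+ c-kitlo CD125+) and mature eosinophils (Eos, positive for Siglec-F and CCR3). Total RNA was sequenced from 2 separate sorts of each kind, and the histone mark H3K4me3, which lies at active promoters, was mapped by chromatin immunoprecipitation in 1 sort of each. No allele or agent differed between the groups, the sources used here do not give the number of mice in a pool, and nothing says that the sorts used different animals, so p-values measure the spread between these sorts. The comparisons ask what changes as a progenitor enters the lineage (EoP against GMP) and as it matures (Eos against EoP, and Eos against GMP over both steps).

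Library totals ran from 5226653 to 6576661 counts in GMP, 9628492 to 12088134 in EoP and 10790618 to 10940000 in Eos. The labels were checked against marker genes, whose CPM (counts scaled to library depth by TMM factors) were summed over each list. The 6 GMP markers summed to 42197 and 39465 CPM in GMP, 2582 and 3184 in EoP and 14752 and 4968 in Eos. The 8 eosinophil lineage markers that the files list summed to 1172 and 314 CPM in GMP, 212376 and 168336 in EoP and 14377 and 18285 in Eos. Prg2 held most of the EoP sum, with 176395 and 137064 CPM in EoP and 4426 and 3321 in Eos. Epx and Prg3 were also lower in both Eos libraries than in EoP, and Gata1 overlapped. Ccr3, Alox15, Il5ra and Siglec5 were higher in both, with Ccr3 at 21.3 and 34.5 CPM in EoP and 2272 and 2973 in Eos. Of 13 neutrophil markers 12 were in the files, none of the 12 was at 0 in any library, and they summed to 2153 and 771 CPM in GMP, 634 and 285 in EoP and 41969 and 48587 in Eos. The sum of the GMP markers was higher in both Eos libraries than in EoP, as were Mpo, Elane and Prtn3, and Ctsg overlapped. Kit and Cd34 were lower: Kit had 200 and 237 CPM in EoP and 111 and 39.1 in Eos. Cd34 had 53.0 and 61.8 CPM in EoP and 18.4 and 7.72 in Eos. The part of the neutrophil markers and of the GMP markers in the results was not tested. These are bulk libraries, in which fewer cells of a type and less RNA per cell cannot be told apart.

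A ribosome joins a small subunit, which decodes the messenger, to a large subunit, which forms the peptide bond, and nearly all of their proteins are made from single-copy genes whose products are needed in equal number. The messengers of many ribosomal proteins in mammals start with a C followed by an unbroken run of C and T, the 5′ terminal oligopyrimidine tract, through which mTOR and the RNA-binding protein LARP1 adjust their translation. Dividing progenitors make ribosomes at a high rate, and the output falls when blood cells leave the cycle and mature.

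The start sites of some members that the results turn on are shown here because the tract is the sequence feature best known for this family. Each window is from RefSeq on GRCm38.p6, runs 5′ to 3′ on the gene's strand from 35 bases before to 25 after the RefSeq transcript start, and has its longest run of C and T near the start in capitals. Rpl4 (chr9:64173352-64173411, plus strand) was among the most abundant members, Rpl14 (chr9:120571482-120571541, plus strand), Rpl10a (chr17:28328436-28328495, plus strand) and Rpl22l1 (chr3:28805473-28805532, plus strand) had the largest called falls in Eos against EoP among members of 20 CPM or more, Rplp2 (chr7:141447616-141447675, plus strand) and Rplp0 (chr5:115559432-115559491, plus strand) are parts of 1 structure with unlike changes, and Rps9 (chr7:3704006-3704065, plus strand) was the member that rose in Eos against GMP. The start in the deposited table is 3 bases from that of RefSeq for Rpl22l1 and 1 base for Rplp2, and equal for the others.
Rpl4: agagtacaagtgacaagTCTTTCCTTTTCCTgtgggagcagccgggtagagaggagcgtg
Rpl14: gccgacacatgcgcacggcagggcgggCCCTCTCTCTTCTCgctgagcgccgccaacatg
Rpl10a: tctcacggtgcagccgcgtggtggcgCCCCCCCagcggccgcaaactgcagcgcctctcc
Rpl22l1: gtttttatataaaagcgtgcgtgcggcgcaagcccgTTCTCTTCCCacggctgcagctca
Rplp2: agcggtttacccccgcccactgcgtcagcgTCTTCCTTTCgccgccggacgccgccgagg
Rplp0: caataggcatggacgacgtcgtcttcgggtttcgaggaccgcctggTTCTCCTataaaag
Rps9: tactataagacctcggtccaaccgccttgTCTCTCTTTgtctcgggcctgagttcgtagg

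RefSeq windows of 250 bases before to 50 after the start were at hand for 62 of the 83 members. In 31 of the 62 (50%) a run of at least 8 C or T lay between 20 bases before and 30 after the start on the gene's strand, against 18.8% of all 27025 windows. In the same stretch the letters CTTTC stood in 30.6% of the members and 6.46% of all windows, and CTTCC in 30.6% and 10.6%. These letter searches overlap, since a run can hold either of the others. Over the whole window and both strands, CCGGAAG, the core read by factors of the ETS family, stood in 38.7% of the members and 9.12% of all windows, GGGCGG, the core of Sp1 sites, in 59.7% and 35.9%, AAGATGG, letters of the YY1 motif, in 14.5% and 6.48%, and TATAAA, the TATA box, in 9.68% and 14.2%. A match is a run of letters and not a site in use. Rps9, which rose in Eos against GMP, and Rpl14, which fell, both carry a run of C and T across the start, of 9 and 14 letters. The runs begin at −6 and −8 from the RefSeq start, where the first transcribed letter is T in Rps9 and C in Rpl14.

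The members held a falling share of all counts along the 3 stages. Together they took 1.38% and 1.47% of all gene counts in the GMP libraries, 0.996% and 0.762% in EoP and 0.537% and 0.385% in Eos, or 1.43 ± 0.0664%, 0.879 ± 0.165% and 0.461 ± 0.108% (mean ± SD, n = 2 each). No library of one stage overlapped one of another, and an exact permutation test of 2 against 2 libraries cannot go below a two-sided p of 0.333, so none is given. The eosinophil granule genes took 22.8% and 19.9% of all counts in EoP. With those genes left out of the total, GMP had 1.43 ± 0.0653%, EoP 1.12 ± 0.240% and Eos 0.468 ± 0.111%. As a share of the summed RPKM (reads scaled by transcript length and library depth), the members held 4.65 ± 0.165% in GMP, 1.98 ± 0.296% in EoP and 1.38 ± 0.295% in Eos. Their summed CPM overlapped between GMP (10989.5 and 11481.7) and EoP (11305.5 and 7891.7), and both Eos libraries were lower (5903.6 and 4856.9). By log2(RPKM + 0.5), the members' median change in EoP against GMP was 0.0028, where that of all genes tested was 0.38. What part the granule genes had in the RPKM share was not tested.

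**Figure D1:**
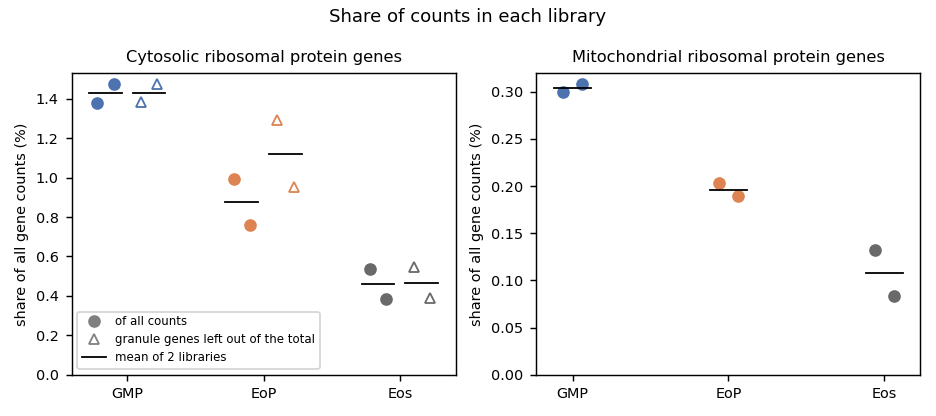
Share of all gene counts (percent, axis from 0) held by the 83 cytosolic ribosomal protein genes (left) and the 76 mitochondrial ones (right) in each library, with stages from left to right; filled circles use all counts, open triangles a total without the eosinophil granule genes, and bars are means of 2 libraries. The cytosolic share was 1.38% and 1.47% in GMP, 0.996% and 0.762% in EoP and 0.537% and 0.385% in Eos.

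Levels differed widely between members. On the RPKM scale, Rpl4, a large protein that lines the exit tunnel, was among the most abundant, with 446 and 534 RPKM in GMP, 513 and 440 in EoP and 214 and 145 in Eos. Both Eos libraries were below all 4 others, and GMP and EoP overlapped. Rpl32, Rpl8 and Rplp1 followed, at means over the 6 libraries of 221, 203 and 201 RPKM. At the other end 15 members had a mean under 1 RPKM, while 19 were above 50 and the median was 13.1 RPKM.

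These levels do not rank the proteins. Ribosomal protein genes have many processed copies in the genome, which can share their reads: RefSeq names at least 1 pseudogene after 62 of the 83 members, and up to 24 after Rpl31. The 23 members with 5 or more named pseudogenes had a median of 3.80 RPKM, against 28.0 for the 39 with 1 to 4 and 27.2 for the 21 with none. Spearman's rho between the level and the number of names was −0.34 over the 83 genes, a description across genes that share their libraries. The sources used here do not say how the deposited counts treated reads that match several places, so the members with copies are uncertain in level, and their part in the order of levels was not tested. The fold changes in Eos against EoP had medians of −0.82, −0.97 and −1.01 in the same 3 classes.

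Few members passed in the step from GMP to EoP. For EoP against GMP, 1 of 78 was higher and 1 was lower (edgeR's quasi-likelihood F test, with p-values adjusted over all genes by Benjamini-Hochberg and called under 0.05), where 9.49% of all genes tested were higher and 17.1% lower. The count lower was 8 with upper quartile factors, 15 with library size alone and 10 with only both cell types compared, where 19.7%, 25.3% and 21.5% of all genes were lower. The fold changes ran from −1.60 to 0.80 with a median of −0.28 on the log2 scale, against −0.07 for all genes, and 22 were positive and 56 negative. Both EoP libraries lay above both GMP libraries in 6 members (31% of all genes) and below them in 31 (39%). The direction of that median rested on 1 library: without EoP replicate 2 it was 0.18. It was 0.0028 on the log2(RPKM + 0.5) scale, where the median of all genes tested was 0.38.

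The riser at this step was Rplp0, the base of the ribosomal stalk, which recruits elongation factors. It had 78.4 and 105 CPM in GMP, 191 and 127 in EoP and 130 and 149 in Eos. Both GMP libraries were below all 4 others, and EoP and Eos overlapped. For EoP against GMP the log2 fold change was 0.80 (SE 0.26, adjusted p = 0.0468), and the call was lost under 10 of 22 alternatives, among them every other scaling of the libraries. Rps15, a protein of the small subunit's head, was the member that fell, with 415 and 362 CPM in GMP, 258 and 178 in EoP and 164 and 132 in Eos. Its libraries did not overlap between any of the stages, and the EoP against GMP change was −0.83 (SE 0.25, adjusted p = 0.0338). It lost its call with any of the GMP or EoP libraries left out, and its locus at chr10:80292431-80294114 (mm10) overlaps the antisense gene Bc1, whose reads cannot be told apart from it without strand.

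Much of the family fell at maturation. In Eos against EoP, 37 of 78 members (47.4%) were lower and 0 higher, where 17.7% of all genes tested were lower and 19.1% higher. With an unadjusted p under 0.05, 46 were lower and 1 was higher, and with DESeq2 size factors or limma-voom 1 was higher. The share of all genes at the unadjusted threshold was not counted, and 17.7% and 19.1% are shares at an adjusted p. The 37 calls ran from −0.79 to −1.75, and the median of all 78 was −0.96, against 0.02 for all genes tested. Of the 78, 73 had a negative fold change and 5 (Rpl28, Rpl3l, Rps2, Rps27 and Rps9) a positive one. Both Eos libraries lay below both EoP libraries in 64 members (35.5% of all genes) and above them in 2 (35.4%).

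The size of that count rested on the EoP libraries, which differed from each other. EoP replicate 1 was above replicate 2 in 69 of 78 members, by a median of 0.53 log2 units, where the median over all genes was 0. In Eos, replicate 1 was the higher in 58, by 0.32, and in GMP in 37, by −0.01. Without EoP replicate 1, 3 of 79 tested members were lower, below the 8.66% of all genes called lower in that fit, with a median of −0.70 against 0.07 for all genes. Without Eos replicate 2 the count lower was 23, with 12% of all genes lower and a median of −0.80. Without EoP replicate 2 it was 32, with 9.34% of all genes lower and a median of −1.12. Immediate early and heat shock genes also differed within stages: the 10 listed summed to 476 and 2478 CPM in GMP, 4526 and 36.3 in EoP and 563 and 2884 in Eos. The 4 mast cell and basophil markers summed to 925 and 890 CPM in GMP, 744 and 3328 in EoP and 70.1 and 28.5 in Eos, and 1 of them was at 0 in each EoP and Eos library. The part of either list in the difference between sorts was not tested.

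Over both steps 50 members fell. In Eos against GMP, 50 of 78 members (64.1%) were lower and 1 was higher, against 31.8% and 22.7% of all genes tested. The 50 ran from −0.71 to −2.31, and the median of the 78 was −1.20, against −0.39 for all genes, a gap of −0.81 where Eos against EoP had −0.97. Eos lay below GMP without overlap in 72 members (49.7% of all genes) and above in 3 (33.3%). Without GMP replicate 1 the count lower was 29, with 13.9% of all genes lower, and without GMP replicate 2 it was 22, with 11.4%. In 64 of 78 members both Eos libraries were below all 4 libraries of the other stages, which held for 27.9% of all genes. The 3 comparisons share libraries and are not independent of each other. By mean CPM, 52 members stood in the order GMP, EoP, Eos from high to low, and 20 had EoP highest and Eos lowest.

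**Figure D2:**
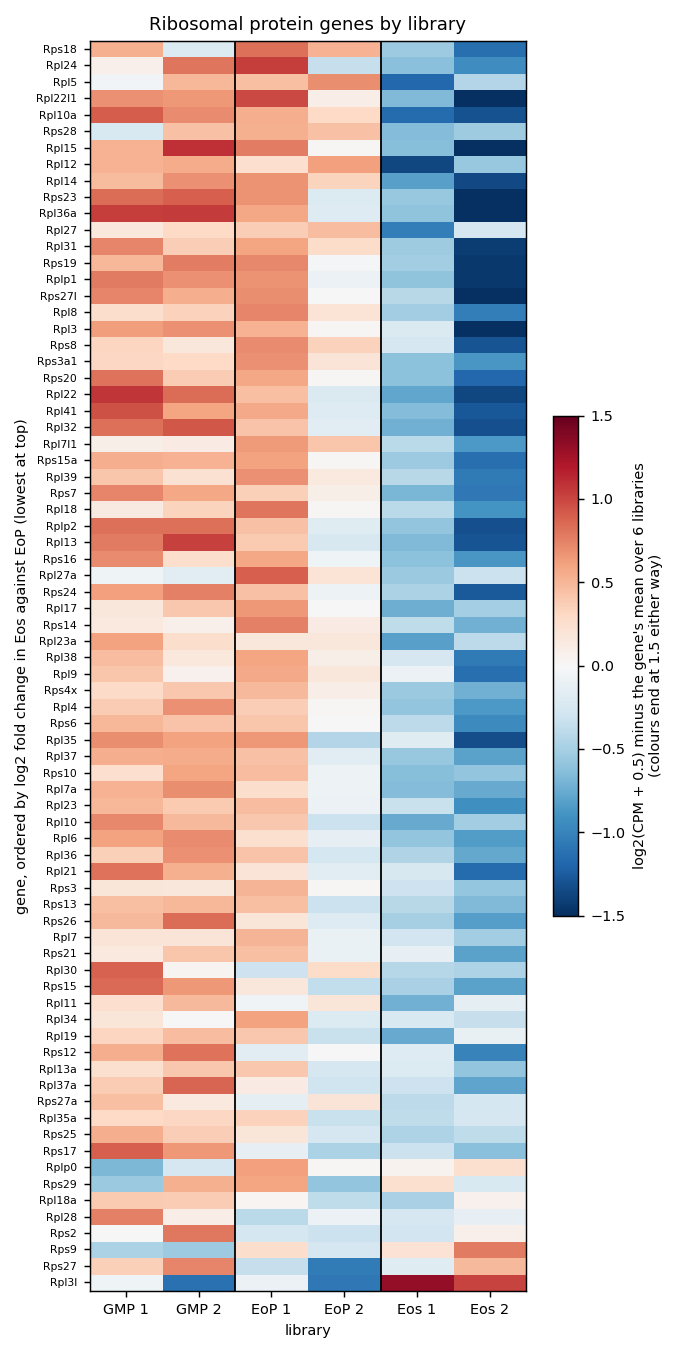
Each row is 1 of 76 of the 78 tested ribosomal protein genes and each column 1 library, with stages from left to right; the colour is log2(CPM + 0.5) minus the gene's mean over the 6 libraries, and rows run from the lowest log2 fold change in Eos against EoP at the top to the highest at the bottom. Both Eos columns are below all others in 63 of 76 rows, and EoP 1 is above EoP 2 in 67.

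Members of both subunits fell. In Eos against EoP, 24 of 47 large subunit members were lower, with a median of −0.97, and 13 of 31 of the small subunit, with a median of −0.91. Of all genes tested, 17.7% were lower in that comparison. In Eos against GMP, 30 of 47 were lower with a median of −1.24, and 20 of 31 with a median of −1.16 and 1 higher. There 31.8% of all genes were lower and 22.7% higher. The small subunit's share of the members' counts was 44.4% and 43.0% in GMP, 46.3% and 46.1% in EoP and 49.5% and 52.2% in Eos, with no overlap between stages. With Rps9 left out it was 43.2% and 41.9% in GMP, 44.4% and 44.2% in EoP and 46.2% and 46.2% in Eos. By level, of 45 members at a mean of 20 CPM or more, 32 were lower in Eos against EoP (median −1.02). Of 33 below it 5 were (median −0.90), beside 17.7% of all genes. Without EoP replicate 1 the count lower in Eos against EoP was 2 of 47 large subunit members, 1 of 32 of the small subunit and 3 of the 45. Within 21 tested members lies a small nucleolar RNA gene, and 12 of these were lower, against 25 of 57 without one (1 of the 21 without EoP replicate 1).

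Among members at 20 CPM or more in EoP, the deepest falls at maturation were in Rpl22l1, Rpl10a and Rpl14, all of the large subunit. Rpl22l1 is a paralog of Rpl22 and had 44.2 and 43.2 CPM in GMP, 55.0 and 29.2 in EoP and 17.1 and 7.72 in Eos. Both Eos libraries were the lowest. The Eos against EoP change was −1.75 (SE 0.40, adjusted p = 0.00745), and it was −1.24 (adjusted p = 0.0694) without EoP replicate 1. Rpl10a, a protein of the L1 stalk, where spent transfer RNA leaves, had 34.9 and 30.2 CPM in GMP, 26.9 and 22.7 in EoP and 7.93 and 7.13 in Eos. Its libraries did not overlap between stages and were close to each other within Eos, with a change of −1.71 (SE 0.27, adjusted p = 0.00128). Rpl14 had 108 and 126 CPM in GMP, 124 and 97.8 in EoP and 44.1 and 30.2 in Eos, a change of −1.58 (SE 0.26, adjusted p = 0.00143) with GMP and EoP overlapping. Rpl10a and Rpl14 kept their calls in each alternative run. Rps19, Rplp1 and Rps27l followed at −1.32, −1.31 and −1.28, and these 3 calls were lost without EoP replicate 1.

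Against GMP the largest falls in Eos at that level, after Rpl10a (−2.11, SE 0.27, adjusted p = 0.000257) were in Rpl22, Rpl32 and Rpl13. Rpl22, a protein on the outside of the large subunit known for its role in lymphocyte development, had 484 and 413 CPM in GMP, 314 and 197 in EoP and 134 and 88.9 in Eos. The pair of Rpl22 transcripts that hold nearly all of these counts have equal values in every library, and the sources used here do not say whether their reads were split or counted once for each, so the level is uncertain. Each stage was below the one before without overlap, and the change in Eos against GMP was −2.01 (SE 0.30, adjusted p = 0.000627). Rpl32 fell by 1.88 and Rpl13 by 1.87 on the log2 scale. Cand2 lies antisense to Rpl32, so reads of that pair cannot be told apart without strand.

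The genes of the stalk, which brings elongation factors to the large subunit, had unlike changes, and the difference between them was not tested. The stalk is built of Rplp0 and dimers of Rplp1 and Rplp2. Rplp1 had 389 and 365 CPM in GMP, 361 and 212 in EoP and 148 and 82.6 in Eos, and Rplp2 had 250 and 250 in GMP, 191 and 124 in EoP and 92.9 and 56.0 in Eos. Both were lowest in Eos, with changes against EoP of −1.31 (SE 0.33, adjusted p = 0.0122) and −1.08 (SE 0.29, adjusted p = 0.0175). Both calls were lost without EoP replicate 1, at −0.89 (adjusted p = 0.117) for Rplp1 and −0.74 (adjusted p = 0.159) for Rplp2, and that of Rplp2 was lost without Eos replicate 2 (adjusted p = 0.0534). Rplp0 had −0.19 (SE 0.26, adjusted p = 0.581) in the same comparison, and 0.60 (SE 0.26, adjusted p = 0.0707) against GMP, where Rplp1 had −1.71 and Rplp2 −1.75.

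Rps9, a protein of the small subunit near the entry of the messenger, was the member that rose in Eos against GMP. It had 228 and 217 CPM in GMP, 380 and 265 in EoP and 368 and 543 in Eos. Both GMP libraries were below all 4 others, and EoP and Eos overlapped. Its change in Eos against GMP was 1.04 (SE 0.27, adjusted p = 0.0106), positive under each of 22 alternatives and lost in 4, with 0.43 for library size alone and adjusted p of 0.0668 and 0.0516 without GMP replicate 1 and 2. RefSeq names no pseudogene after it, and no other gene overlaps its locus at chr7:3704041-3706897. Among members of 20 CPM or more, 13 did not pass in Eos against EoP, with changes from −0.72 to 0.50; beside Rps9 and Rplp0 they included Rps3, Rps15, Rps25, Rps26 and Rpl7.

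**Figure D3:**
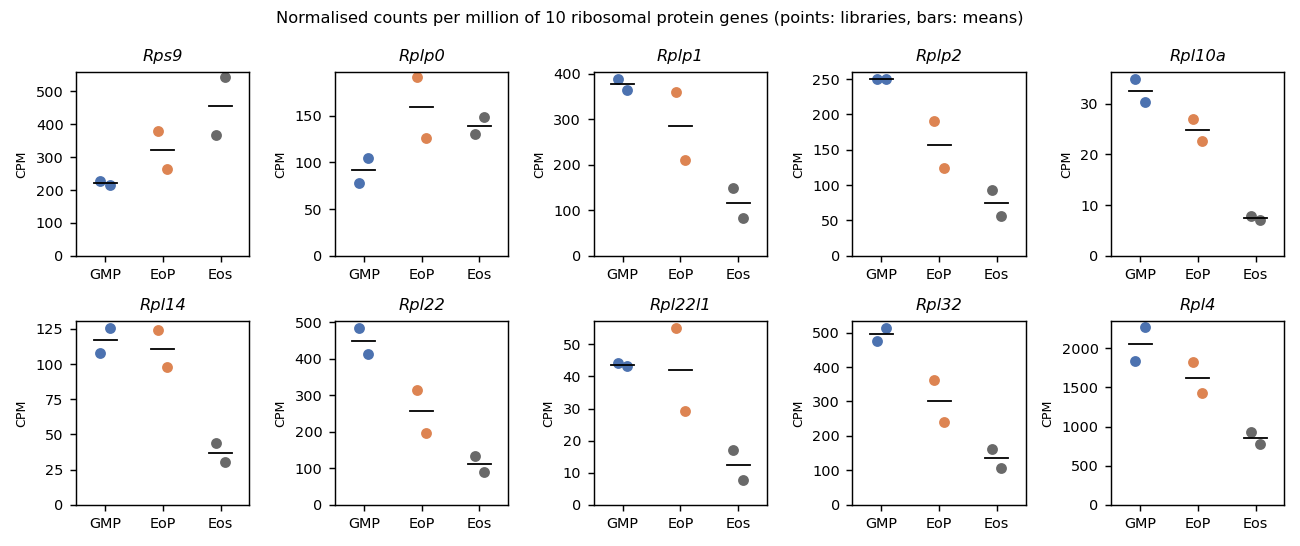
CPM (TMM-scaled counts, axes from 0) of 10 ribosomal protein genes, with stages from left to right, points for the 2 libraries of a stage and bars for their mean. Rps9 was at 228 and 217 in GMP, 380 and 265 in EoP and 368 and 543 in Eos, and Rpl10a had 7.93 and 7.13 in Eos.

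A second fit asked which members left the rest of the family, with each library scaled to the members' own sum. In Eos against EoP, 3 of 78 were then higher (36.1% of all genes) and 1 was lower (4.47%). In Eos against GMP, 4 were higher (40.8%) and 3 lower (10%), and in EoP against GMP 1 was higher (11.6%) and 0 lower (15.9%). The first fit had 19.1% of all genes higher in Eos against EoP and 22.7% in Eos against GMP. The shares of all genes thus depend on the scaling. The p-values were adjusted over all genes, so the many calls outside the family eased the threshold for members in the Eos comparisons. No adjustment over the 78 members alone was made, so adjusted p-values near the threshold are weak evidence of leaving the family. Rps9 stood 1.37 above the family in Eos against EoP (SE 0.44, adjusted p = 0.00689) and 2.14 above it in Eos against GMP (SE 0.45, adjusted p = 1.28e-05). Rplp0 stood 1.02 above it in EoP against GMP (SE 0.40, adjusted p = 0.043) and 1.69 in Eos against GMP (SE 0.41, adjusted p = 0.000153). Rpl3l in Eos against both progenitors and Rps27 in Eos against EoP, both under 4 CPM in every library, also stood above it.

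Below the family in that fit were Rpl22l1 in Eos against EoP (−0.93, SE 0.40, adjusted p = 0.0476) and, in Eos against GMP, Rpl10a (−1.05, adjusted p = 0.0309), Rpl22 (−0.96, adjusted p = 0.0436) and Rpl36a (−1.29, adjusted p = 0.04). With the trimmed mean of the members in place of their sum, 0 were lower in either comparison and 5 were higher in Eos against EoP.

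Paralog pairs differed in balance. On the RPKM scale, Rpl22l1 made up 29.7% and 32.7% of the sum of Rpl22 and Rpl22l1 in GMP, 44.8% and 40.7% in EoP and 37.1% and 28.7% in Eos, so EoP was highest and GMP and Eos overlapped. With 1 of the Rpl22 transcripts of equal counts kept, the share was 44.7% and 49.4% in GMP, 61.9% and 55.5% in EoP and 54.3% and 44.7% in Eos. Rpl7l1 made up 9.05% and 9.23% of its pair with Rpl7 in GMP, 10.5% and 13.2% in EoP and 8.92% and 7.69% in Eos. In Eos against EoP it fell by 1.16 on the log2 scale (adjusted p = 0.00537), and Rpl7 had −0.64 (adjusted p = 0.0642). Without EoP replicate 1 the change of Rpl7l1 was −1.06, and its call rested on that library. The difference between Rpl7l1 and Rpl7 was not tested. Rps27l, a p53-induced paralog, had 84.7% or more of the RPKM of its pair with Rps27 in every library, but 2 pseudogenes are named after Rps27, which limits the pair. Rpl10l and Rpl39l, known as testis genes, had 3 counts each over the 6 libraries. Rpl3l, a striated muscle paralog of Rpl3, had 0.847 and 0.149 CPM in GMP, 0.826 and 0.171 in EoP and 3.01 and 2.34 in Eos, the sole member with both Eos libraries above the other 4 (25.2% of all genes), and did not pass against EoP (2.47, SE 0.93, adjusted p = 0.06).

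Of 9 members whose loss causes Diamond-Blackfan anaemia in humans, 4 fell in Eos against EoP (17.7% of all genes) and 6 in Eos against GMP (31.8%), and 0 in EoP against GMP (17.1%). Without EoP replicate 1 the first count was 0, and the second was 5 without GMP replicate 1 and 3 without GMP replicate 2. Rps19, the gene most often mutated in that disease, had 58.3 and 70.0 CPM in GMP, 67.8 and 40.7 in EoP and 28.5 and 14.7 in Eos, lowest in both Eos libraries. Its Eos against EoP change was −1.32 (SE 0.35, adjusted p = 0.0147), and Rps7, Rps24 and Rps10 had −1.14, −1.03 and −0.84. Rpl5 and Rpl11, which bind Mdm2 when ribosome assembly fails, did not pass in either, at or under 6.26 CPM in every library.

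Other parts of the translation apparatus were counted beside the family. Of all genes tested, 17.7% were lower and 19.1% higher in Eos against EoP. Of 5 ribosome parts whose symbols the rule does not catch, 3 fell in Eos against EoP, with changes of −1.38 for Rpsa, −1.24 for Gnb2l1, which encodes the scaffold RACK1, and −1.34 for Rpl36al. Of 48 translation factors, 25 were lower and 0 higher in Eos against EoP, with a median of −0.80. Eef1a1, which delivers transfer RNA to the ribosome, fell by 1.07 (SE 0.27, adjusted p = 0.0117), and Eif1a by 1.54 (SE 0.21, adjusted p = 0.000639). Of 6 genes of ribosome recycling and rescue 3 were lower, among them Abce1 (−1.49, adjusted p = 0.00817). Without EoP replicate 1 the counts lower in Eos against EoP were 0 of the 5 parts, 10 of the 48 translation factors, without Eef1a1 (−0.89, adjusted p = 0.113), and 2 of the 6. In EoP against GMP 9.49% of all genes were higher and 17.1% lower. The 48 translation factors had 1 rise there, Etf1, a release factor (1.01, adjusted p = 0.0107). They had 1 fall, Eif4a1, an RNA helicase of initiation (−0.96, adjusted p = 0.0294). The call of Etf1 rested on EoP replicate 1 and on both GMP libraries, and that of Eif4a1 on every GMP and EoP library. The median of the translation factors at this step ran from −0.12 to 0.19 with 1 of those libraries left out.

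The genes that make ribosomes also fell in Eos, and their difference from the members was not tested. Of 45 genes of RNA polymerase I and ribosome assembly, 7 were lower in EoP against GMP (17.1% of all genes), with a median of −0.36. In Eos against EoP 32 were lower and 1 higher (17.7% and 19.1% of all genes), with a median of −1.27. In Eos against GMP 37 were lower (31.8% of all genes), with a median of −1.80. Nucleolin (Ncl) fell at both steps, by 0.87 and 0.93 on the log2 scale, and Npm1, which encodes nucleophosmin, by 1.56 at the second. All calls of this list in EoP against GMP rested on every GMP and EoP library. The list's median there ran from −0.55 to −0.14 with 1 of those libraries left out. The gene that rose in Eos against EoP was Polr1a, the largest subunit of RNA polymerase I (0.70, SE 0.23, adjusted p = 0.0344). Without EoP replicate 1, 21 of the 45 were lower and 0 higher in that comparison, with Ncl (−0.99, adjusted p = 0.102) and Polr1a (0.54, adjusted p = 0.252) among the lost calls. The 19 regulators of ribosomal protein output were mixed, with 5 higher and 3 lower in Eos against EoP. Of all genes tested, 19.1% were higher and 17.7% lower. Their median was 0.05, and −0.05 without EoP replicate 1. Beside the genes given next, Rptor (0.68), Eif4ebp1 (0.79), Mdm2 (0.74) and Sp1 (0.78) were called higher and Trp53 (−1.05) lower. Without EoP replicate 1 the changes were 0.55, 1.03, 0.89, 0.64 and −1.06 in the same order. The calls of these rises rested on both EoP libraries. Myc, which drives ribosome synthesis, fell by 1.67 (SE 0.44, adjusted p = 0.0144) and Larp1 by 1.05 (SE 0.28, adjusted p = 0.0143), and Maf1, a repressor of RNA polymerase III, rose by 1.18 (SE 0.27, adjusted p = 0.00778).

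The most alike gene family, that of the mitochondrial ribosome, gave a similar count. It had 76 genes in the files, of which 74 were tested. In Eos against EoP 29 of them were lower and 0 higher (17.7% and 19.1% of all genes), with a median of −0.87. In Eos against GMP 45 were lower (31.8% of all genes), with a median of −1.03. In EoP against GMP 3 were lower and 1, Mrpl41, was higher (17.1% and 9.49% of all genes). Their share of all counts was 0.300% and 0.308% in GMP, 0.203% and 0.190% in EoP and 0.132% and 0.0830% in Eos. With EoP replicate 1 left out, 7 of 74 were lower in Eos against EoP, where 8.66% of all genes were. The difference between both families was not tested.

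**Figure D4:**
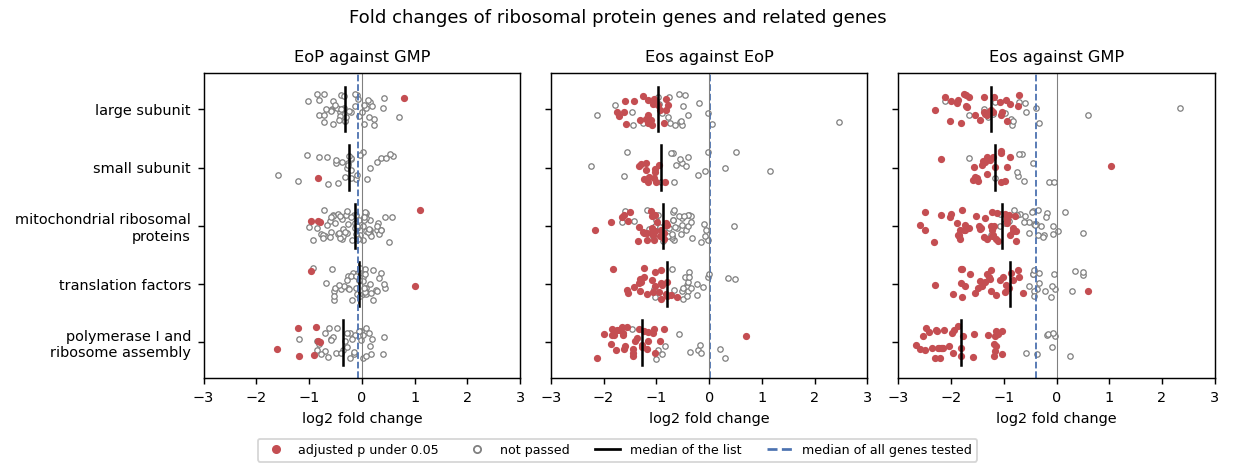
Log2 fold changes of each tested gene in 3 comparisons, for large and small subunit members, mitochondrial ribosomal proteins, translation factors, and genes of RNA polymerase I and ribosome assembly; red points passed at an adjusted p under 0.05, open points did not, black bars are list medians and the dashed line the median of all genes tested. In Eos against EoP the list medians lie at −0.97, −0.91, −0.87, −0.80 and −1.27, against 0.02 for all genes.

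The promoters of nearly all members carried H3K4me3 in each stage. The authors' lists held a promoter peak for 79 of 83 members in GMP, 78 in EoP and 78 in Eos, and 78 had one in all 3. Among all genes tested for RNA, 81.4% had one in GMP, 74.1% in EoP and 76.2% in Eos. Rpl10l, Rpl39l, Rpl3l and Rps4y2 had none in any list, and Rpl36a had one in GMP alone. At 77 members peaks of all 3 lists overlapped each other by at least 1 base. There is 1 library per stage, of unknown read depth, so these are descriptions of the lists with no test between stages.

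Rps9 shows what the peaks look like. The Rps9 peak lay at chr7:3704026-3704980 in GMP (mm10), with a pileup of 51 and a fold enrichment of 6.65 at its best summit. It lay at chr7:3704040-3704938 in EoP, with 33 and 7.98, and at chr7:3704040-3704953 in Eos, with 37 and 9.52. Those values are the authors', and each covers the start shown above. Rpl26 and Rpl29 had peaks in every list although they held 1 and 5 counts over all 6 RNA libraries. Of the 15 members under 1 RPKM, 11 had a promoter peak in each stage, and RefSeq names a pseudogene after 10 of these 11.

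Within their own list the members' peaks were long and well scored in the progenitors. Ranked by −log10 q among all genes with a promoter peak, the members' median percentile stood at 70.9 in GMP, 67.2 in EoP and 49.7 in Eos. By summed length of promoter peaks GMP had 75.2, EoP 61.5 and Eos 50.1. The median length was 1231 bases in GMP, 894.5 in EoP and 782 in Eos, against 951, 793 and 780 for all genes with a promoter peak. The lists held 30641, 19816 and 33846 peaks, and ranks or lengths from lists of different size and depth show no change between stages. The longest were at Rps12, Rps18 and Rpl4 in GMP (1804, 1803 and 1744 bases), Rps18, Rpl30 and Rpl7a in EoP (1427, 1377 and 1324) and Rps25, Rpl7 and Rps27a in Eos (1314, 1270 and 1248). The shortest were at Rpl41 and Rpl22l1 in GMP (690 and 750 bases), Rpl17, Rps27 and Rpl41 in EoP (486, 526 and 554) and Rpl8, Rps4x and Rpl36 in Eos (405, 413 and 431).

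The best summit lay downstream of the start in 74 of 79 members in GMP, 72 of 78 in EoP and 61 of 78 in Eos, at a median of 380, 321 and 191.5 bases. The promoter label named another gene as well in 37, 35 and 33 members, a small nucleolar RNA of the host gene in 18, 17 and 14 of them. Counting only labels that hold the member alone gave 52 members in GMP, 47 in EoP and 50 in Eos.

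**Figure D5:**
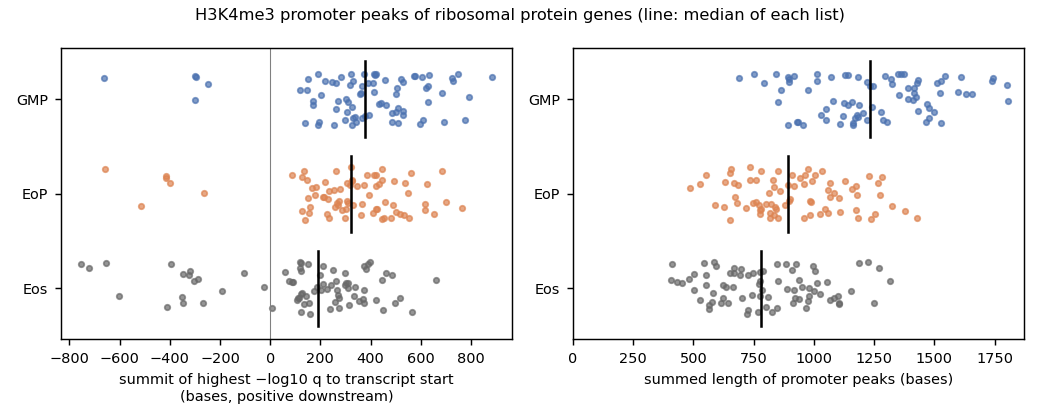
For each ribosomal protein gene with a promoter peak, the distance from the transcript start to the summit of highest −log10 q (left, bases, positive downstream) and the summed length of its promoter peaks (right, bases), by stage from top to bottom; points are genes and bars medians. Median distances were 380 in GMP, 321 in EoP and 191.5 in Eos, and median lengths 1231, 894.5 and 782.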

How the data were processed

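RNA was measured in 6 libraries and H3K4me3 in 3. The authors' RNA tables give, per RefSeq transcript, an estimated count in whole numbers and an RPKM value, per the file headers. STAR 2.4.0c, Bowtie 1.0.0 and mm10 stand in the submitters' processing notes without roles, and the sources used here do not name the counting tool. Estimated counts and RPKM were summed per gene symbol. The deposited peak lists, 1 per library, give summits with a pileup signal, −log10 p and q, a fold enrichment and a peak length, per the file headers. Joined gene labels of a peak were split and a promoter peak is one the authors annotated to a promoter.

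Counts were tested in R 4.3.3 with edgeR 4.0.16 (quasi-likelihood test, default filter, TMM factors), in 1 fit of 6 libraries whose only term was cell type, with 3 residual degrees of freedom. It covered 14324 genes, with a common dispersion of 0.0692, and was tested on simulated data. Calls were made under 0.05 after Benjamini-Hochberg adjustment over all genes. The second fit used the members' summed counts as library sizes. Alternatives were other scalings, DESeq2 1.42.0, limma 3.58.1 (voom, or log2(RPKM + 0.5) and log2(RPKM + 0.1) of genes with at least 1 RPKM in 2 libraries), other filters, the replicate number as a block, and each library left out.

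Named members are the 5 most abundant, up to 6 largest called changes each way at 20 CPM or more without overlap, up to 4 from the second fit, paralogs, the stalk, the Diamond-Blackfan genes, members lacking a promoter peak, and the 3 longest and shortest peaks of a list, apart from items that are not reported here; others (Rpl26, Rpl29, the members that did not pass) were chosen after their values were seen. The members and lists were chosen with earlier results of these data known. Groups were taken from sample titles.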

Additional observations from a re-analysis of the deposited data

How the results depend on the processing

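Of 2144 single-member values under the alternatives, 1939 kept direction and call, 108 gained a call, 97 lost one and 0 reversed. For EoP against GMP, 0 members were higher with DESeq2 size factors, upper quartile factors, library size alone, TMM without granule genes, at least 50 counts, the replicate block or a 2-fold minimum, against 3, 2 and 2 on log2(RPKM + 0.5), log2(RPKM + 0.1) and unfiltered RPKM values. The count lower was 8 with upper quartile factors (19.7% of all genes), 15 with library size alone (25.3%), 3 with DESeq2 size factors (17.5%), limma-voom (19.4%) or no filter (14.4%), 10 with only both cell types compared (21.5%), and 0 on the RPKM settings or with a 2-fold minimum. Leaving out each replicate gave 0 to 3 higher and 0 to 9 lower. The median fell to −0.75 with library size alone, was 0.0028 on both filtered RPKM scales, and ran from −0.55 to 0.18 with a replicate left out.

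In Eos against EoP, 1 member was higher with DESeq2 size factors, TMM without granule genes, limma-voom, no filter or only both cell types, and 0 to 1 with a replicate left out. The count lower was 64 and 61 of 73 on the RPKM scales with 0.5 and 0.1 added, where 43.4% and 41.9% of all genes were lower. The median with 0.1 was −1.47, against −0.61 for all genes. With a replicate left out the members' median ran from −1.16 to −0.70, and that of all genes from 0 to 0.10. In Eos against GMP the count higher was 3 with DESeq2 size factors, TMM without granule genes, no filter or only both cell types, 2 with DESeq2's Wald test, limma-voom or the crossed block, 0 with library size alone, and 0 to 3 with a replicate left out. The count lower ran from 22 to 52 with a replicate left out, and the median was −1.78 with library size alone. That scaling moved the median of all genes to −0.53 in EoP against GMP and −0.97 in Eos against GMP.

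Relative to the members' sum, EoP against GMP gave 0 higher with no filter or at least 50 counts, and 0 to 1 with a replicate left out. Eos against EoP gave 1 higher with at least 50 counts, 5 with the trimmed mean and 1 to 4 with a replicate left out, and 0 lower with no filter, only both cell types, the rule without paralogs or the trimmed mean, and 0 to 1 with a replicate left out. Eos against GMP gave 2 to 4 higher with a replicate left out, and 1 lower with no filter, 0 with the trimmed mean and 0 to 4 with a replicate left out. Shares on RPKM were 4.65% in GMP, 1.98% in EoP and 1.38% in Eos, and the share of counts in EoP without granule genes was 1.12%. Labels holding the member alone gave 52, 47 and 50 promoter peaks. The causes were not tested. The replicate numbers do not pair the libraries (correlations −0.14 for EoP with GMP, −0.11 for Eos with EoP and 0.04 for Eos with GMP over all genes, and −0.15, 0.43 and 0.12 over the members): the replicate block gave 0 higher and 2 lower in EoP against GMP, and 37 and 50 lower in the other comparisons. With the EoP numbers crossed it gave 1 and 1, 0 and 38, and 2 and 49 higher and lower. The trimmed mean, the crossed block, the label and distance settings for peaks, and the shares and gene lists with a replicate, Rps9 or an equal Rpl22 transcript left out were chosen after seeing the data. Of 33 tested members under 20 CPM, 5 were called in Eos against EoP, and the part of depth in that count was not tested.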
